A study of Triticum aestivum with 18 samples.

Results

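In wheat roots from the Broadbalk field experiment, 127 of 61179 wheat probe sets on the array (0.208%) stood highest on the low nitrogen arrays. Each of them met 3 conditions on the deposited intensities. Its lowest low nitrogen array lay above the highest of the other 15 arrays, its mean log2 intensity in low nitrogen was at least 0.6 above the mean of the other 15, and its linear low nitrogen mean was at least 200. The members were thus chosen by their measured low nitrogen level against all other arrays, and every comparison of low nitrogen with the other groups is given for them as a description with no test.

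The roots were those of the winter wheat cultivar Hereward, dug in May 2011 at booting, the stage when the ear swells inside the flag leaf sheath. The 6 groups of 3 arrays were low nitrogen, no potassium, no magnesium, no phosphate, no sulfate and a nutrient-replete control, all of the same cultivar under the same farm practice. Fertiliser N, P, K and Mg had been withheld since 1843 and S since 2000. The titles call the nitrogen group "low" and the other 4 deficiencies "no". The series text speaks of 12 samples, whereas 18 were deposited, and all 18 were used. How many plots stood behind each treatment is not stated, so plot and treatment cannot be told apart, and p-values measure only the spread between these samples.

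The 2% trimmed mean intensity was 500.1 on every array. Array medians were 60.1 to 61.1 in low nitrogen and 53.3 to 72.4 on the other 15 arrays. Detection calls were not used, and the number of arrays limits the precision. As a check of the tissue, 4 of 8 photosynthesis genes looked for had a name on the array and none was at 0: their summed intensity was 18750 to 21200 in low nitrogen, against 24350 to 27510 in no potassium, 21030 to 26550 in no magnesium, 16950 to 23710 in no phosphate, 21630 to 25960 in no sulfate and 21600 to 26920 in the control. PsbP, a photosystem II protein involved in water splitting, was at 126.5 to 156.3 in low nitrogen and at 173.8 to 822.2 on the other arrays, with no overlap. The other named ones overlapped: rbcl, which made up most of the sum, was at 18310 to 20730 in low nitrogen and 16430 to 26400 on the other arrays, PsbO at 181.3 to 219.7 and 167.5 to 997.7, and petC at 117.3 to 131.7 and 125.2 to 472.1. The 5'/3' intensity ratio of the G6PDH control probe sets was 0.0601 to 0.071 in low nitrogen and 0.0371 to 0.0681 on the other arrays, and that of ubiquitin 1.23 to 1.31 against 1.09 to 1.32. The part of these measures in the members' levels was not tested.

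Wheat roots take up nitrogen as nitrate and ammonium, and reduce nitrate to ammonium before it enters glutamine and glutamate. When nitrogen is scarce, plants commonly raise their uptake capacity, send relatively more growth to the roots and remobilise stored nitrogen. In wheat and other cool-season grasses part of the carbon reserve is stored as fructan, a polymer of fructose, which fructan exohydrolases break down. On bulk root RNA, a transcript made by more cells and one made in greater amount per cell cannot be told apart.

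Of the 127 members, 9 had a gene in the platform annotation (7.09%), against 1273 of the 61179 wheat probe sets (2.08%). The other 118 members are given by their probe set identifiers. Of the 9 annotated genes, 1 had a descriptive name in RefSeq (IWGSC CS RefSeq v2.1), the synonym 6-FEH, and the other 8 carried a running LOC number with no described role.

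The named member was the fructan 6-exohydrolase 6-FEH (LOC780575, probe set Ta.9641.1.A1_a_at), which removes fructose from beta-2,6-linked fructan. It read 328, 239 and 275 intensity units on the 3 low nitrogen arrays. It read 114, 91.8 and 108 in no potassium, 104, 115 and 148 in no magnesium, 124, 144 and 111 in no phosphate, 138, 107 and 100.3 in no sulfate, and 187, 123 and 103 in the control. The low nitrogen arrays stood apart from a band in which the 5 other groups overlapped one another, with control array 1 nearest to them. The low nitrogen mean was 281 ± 44.9 (SD, n = 3) and that of the other 15 arrays 121 ± 24.4 (SD, n = 15), a log2 difference of 1.22.

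A second 6-FEH probe set, Ta.30950.1.A1_x_at, missed the level condition. It read 176, 124 and 175 in low nitrogen, against 89.3, 65.6 and 22.9 in no potassium, 65.9, 43.0 and 87.0 in no magnesium, 117, 116 and 96.0 in no phosphate, 72.4, 81.1 and 68.8 in no sulfate and 96.7, 79.8 and 40.8 in the control. All 3 low nitrogen arrays were again the highest of the 18. In a fit of all 18 arrays, low nitrogen exceeded the mean of the other 5 groups by 1.14 ± 0.33 on the log2 scale (SE; limma adjusted p = 0.0419). The gene was singled out by its member probe set on the same arrays, so this p-value is not evidence that is free of the rule. The third, TaAffx.93410.1.S1_at, averaged 27.9 in low nitrogen and 37.3 on the other arrays, and was too dim to be tested. The 1-FEH gene (LOC543441, Ta.199.1.S1_at), whose enzyme cleaves beta-2,1 bonds of fructan, read 5975, 6268 and 5984 in low nitrogen and averaged 6076 there, against 6703 on the other arrays. Its log2 difference was -0.14 ± 0.06 (limma adjusted p = 0.164), which did not pass the test.

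**Figure D1:**
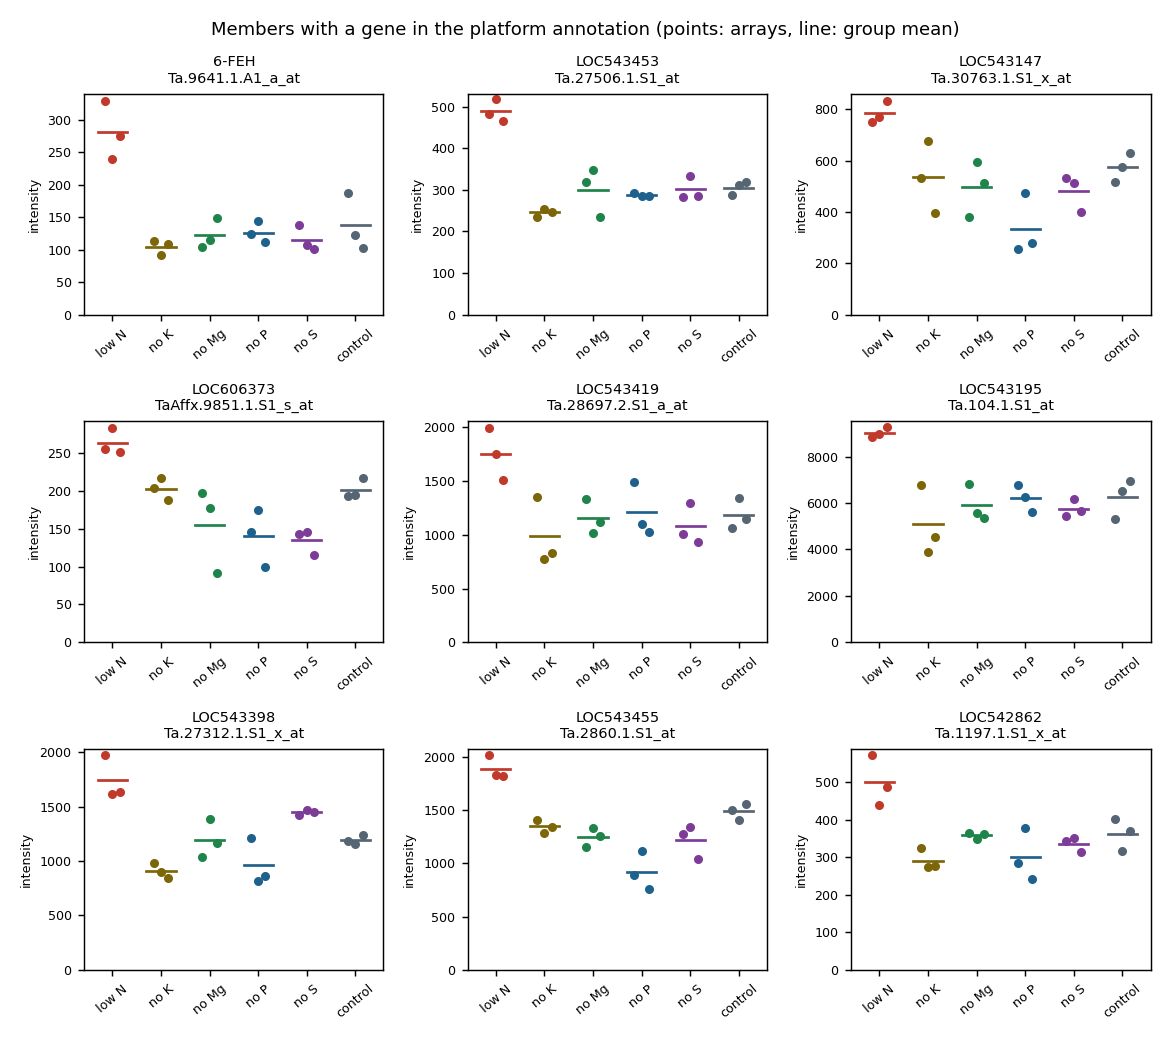
Intensity (linear, from 0) of the 9 members with an annotated gene, by group. Points are arrays and lines are group means, and in each panel all 3 low nitrogen points lie above every other point.

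Of the members with a LOC number, LOC543453 (Ta.27506.1.S1_at) came closest to 6-FEH in size. It read 482, 517 and 466 in low nitrogen, against 235, 255 and 246 in no potassium, 318, 346 and 235 in no magnesium, 292, 285 and 285 in no phosphate, 283, 334 and 285 in no sulfate and 286, 311 and 318 in the control. Its log2 difference of 0.77 came with one of the wider gaps, 0.43 between the lowest low nitrogen array and the highest other array, no magnesium array 2. LOC543147 (Ta.30763.1.S1_x_at) read 753, 769 and 833 in low nitrogen and 255 to 677 on the other arrays, with a median of 513 and a log2 difference of 0.74. Here no phosphate was the lowest group, at 255, 474 and 278.

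LOC606373 (TaAffx.9851.1.S1_s_at) read 256, 283 and 251 in low nitrogen and 91.3 to 217 on the other arrays, with a median of 177 and a log2 difference of 0.70. Its other 7 probe sets did not follow as a set. Their log2 differences ran from -0.27 to 0.72, and on none of them were all 3 low nitrogen arrays above the other 15. Ta.3957.1.A1_at had a difference of 0.42, with 469, 443 and 396 in low nitrogen, while control array 3 reached 448.

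LOC543195 (Ta.104.1.S1_at) read 8873, 8999 and 9270.3 in low nitrogen, 6803, 3898 and 4551 in no potassium, 6828, 5589 and 5345 in no magnesium, 6790.5, 6279 and 5621 in no phosphate, 5454, 6169.6 and 5644 in no sulfate, and 5303, 6534 and 6965 in the control. The low nitrogen arrays lay close together, at 9047 ± 203 (SD, n = 3), and 0.65 above the other 15 on the log2 scale. LOC543419 (Ta.28697.2.S1_a_at) had a far narrower margin, since low nitrogen read 1998, 1753 and 1513 and no phosphate array 1 reached 1494.

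LOC543398 (Ta.27312.1.S1_x_at) read 1976, 1614 and 1639.7 in low nitrogen. It read 984, 901 and 847 in no potassium, 1041, 1388 and 1164 in no magnesium, 1214, 819 and 865 in no phosphate, 1428, 1472 and 1447 in no sulfate, and 1189.5, 1157 and 1240.4 in the control. No sulfate came second, with all 3 arrays above those of the control and of every other group besides low nitrogen. The second probe set of that gene, Ta.21038.1.S1_at, read 2821, 2562 and 2397 in low nitrogen, and no sulfate array 3 (2587) lay within that range. LOC543455 (Ta.2860.1.S1_at) read 2012, 1827 and 1815 in low nitrogen, was lowest in no phosphate, at 885, 1112 and 761, and read 1499, 1408 and 1559 in the control, the second-highest group. LOC542862 (Ta.1197.1.S1_x_at) had the smallest difference of the 9, 0.60, with 572, 439 and 487 in low nitrogen and 241 to 401 on the other arrays. Its other probe sets, Ta.1197.1.S1_at and Ta.28402.1.A1_at, had differences of 0.43 and 0.75, and on both some other array exceeded a low nitrogen array.

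Over all 127 members the log2 difference ran from 0.60 to 1.46 with a median of 0.71, which corresponds to folds of 1.52 to 2.76 with a median of 1.64. It was at least 1 for 12 members, 0.7 to 1 for 58 and under 0.7 for 57. The members were therefore mostly modest differences near the lower limit of the rule, with a short tail of larger ones. Low nitrogen means ran from 203 to 9047 with a median of 737.2, and 52 members were at or above 1000. The gap between the lowest low nitrogen array and the highest other array had a median of 0.13 on the log2 scale, was under 0.1 for 51 members and at least 0.3 for 16. The coefficient of variation among the 3 low nitrogen arrays had a median of 8.56% and a range of 0.864% to 30.5%. The lowest of the 3 was array 1 in 31 members, array 2 in 39 and array 3 in 57.

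**Figure D2:**
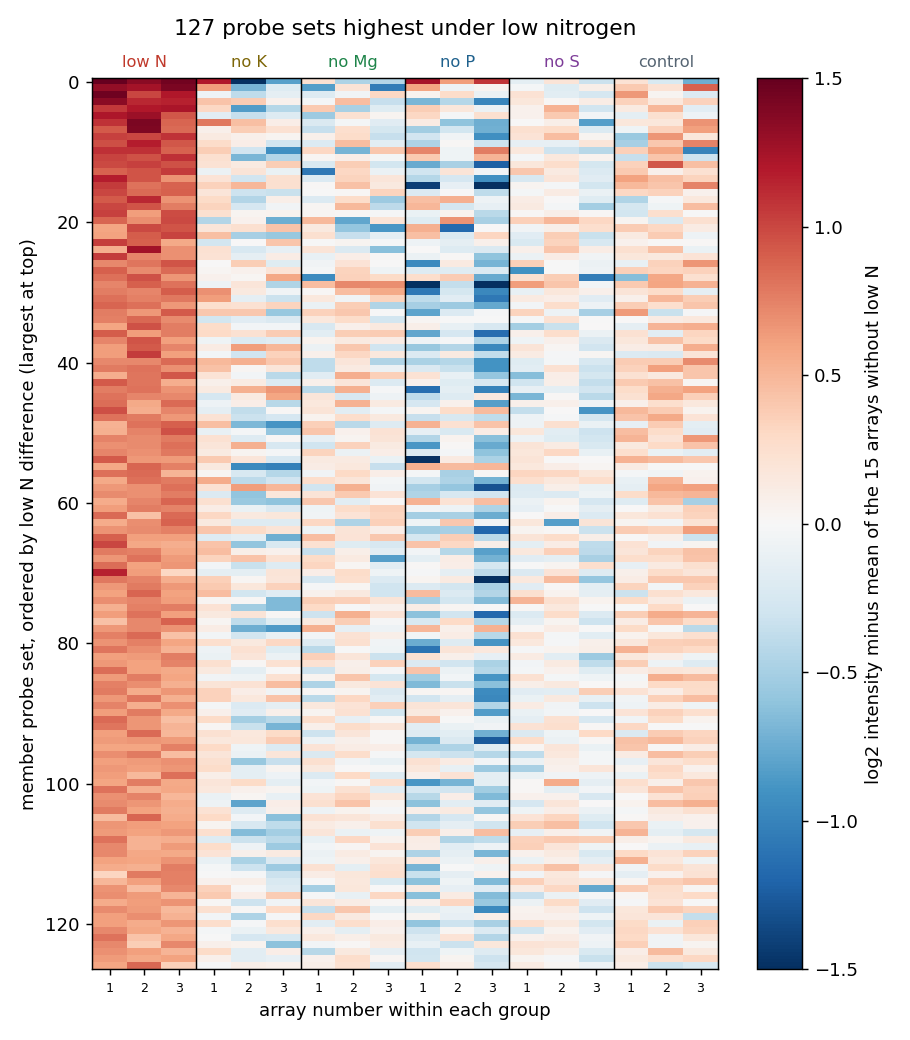
Log2 intensity of the 127 members (rows, largest low nitrogen difference at the top) on the 18 arrays (columns), minus each row's mean over the 15 arrays without low nitrogen; red is higher and blue lower. The first 3 columns are red throughout, as the rule requires, and the no phosphate columns hold the most blue, with no phosphate the lowest of the other groups in 73 members. The no phosphate arrays took part in the choice of members, so their colours were in part set by it.

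The largest difference belonged to Ta.5915.1.S1_x_at, which read 4989, 4239.9 and 4553 in low nitrogen. It read 3813, 541 and 949 in no potassium, 1945, 1204 and 1226 in no magnesium, 3924, 2563 and 3496 in no phosphate, 1507, 1900.3 and 1335 in no sulfate, and 1929, 1418 and 999 in the control. Its difference of 1.46 was the largest while its gap was only 0.11, because no potassium array 1 and 2 of the no phosphate arrays came close to the low nitrogen ones. For this probe set no phosphate stood second, above every control array. In a limma fit without the low nitrogen arrays, no phosphate exceeded the control by 1.23 ± 0.50 on the log2 scale (SE; limma adjusted p = 0.14). This difference did not pass the test. Ta.22770.1.S1_at read 1753, 1664 and 1861 in low nitrogen, 1082, 431 and 613 in no potassium, 396, 809 and 340.1 in no magnesium, 1060.1, 665 and 720.2 in no phosphate, 687, 620.2 and 749 in no sulfate, and 925, 817 and 1294 in the control. Its difference was 1.32, with control array 3 nearest.

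Ta.17389.1.S1_at had the widest gap of all members, 0.67. It read 472, 405 and 411 in low nitrogen, against 248, 240.4 and 194 in no potassium, 181, 255 and 145 in no magnesium, 115, 137 and 93.7 in no phosphate, 208, 188 and 200.2 in no sulfate and 235, 206 and 235 in the control. The groups formed 3 levels, with low nitrogen on top, no phosphate below all other arrays and the rest overlapping in between. Ta.5396.2.S1_a_at, with a gap of 0.55, read 2035, 2237 and 2273 in low nitrogen and 542 to 1392 on the other arrays, with a median of 1021. Ta.3504.1.A1_at, with a gap of 0.53, read 2601, 2738 and 2143 in low nitrogen and 773 to 1483 on the other arrays, with a median of 1113. In Ta.5396.2.S1_a_at the 5 other groups overlapped one another, whereas in Ta.3504.1.A1_at no potassium (1006, 884 and 984) lay below every no phosphate, no sulfate and control array.

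Of the next members by difference, 3 stood out by what came second. In TaAffx.25263.1.S1_at (899.8, 1132 and 780.0 in low nitrogen) no potassium was second at 739, 583 and 455. In TaAffx.37165.1.S1_at (525, 527 and 456 in low nitrogen) no phosphate was second at 411, 237 and 419, and control array 3 was the lowest of all 18 at 123. In Ta.303.1.S1_at (1100.1, 1052 and 1161 in low nitrogen) no phosphate was second as well, at 712, 519 and 775. The remaining large differences were 1.06 for TaAffx.118607.1.S1_s_at, 1.04 for Ta.29450.1.S1_at, 1.03 for Ta.19628.1.S1_at and 0.99 for TaAffx.73807.1.A1_at. The last read 1274, 1309 and 1239 in low nitrogen, 379, 456 and 275 in no phosphate, and 818, 1219 and 879.6 in the control, whose array 2 came next to the lowest low nitrogen array.

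**Figure D3:**
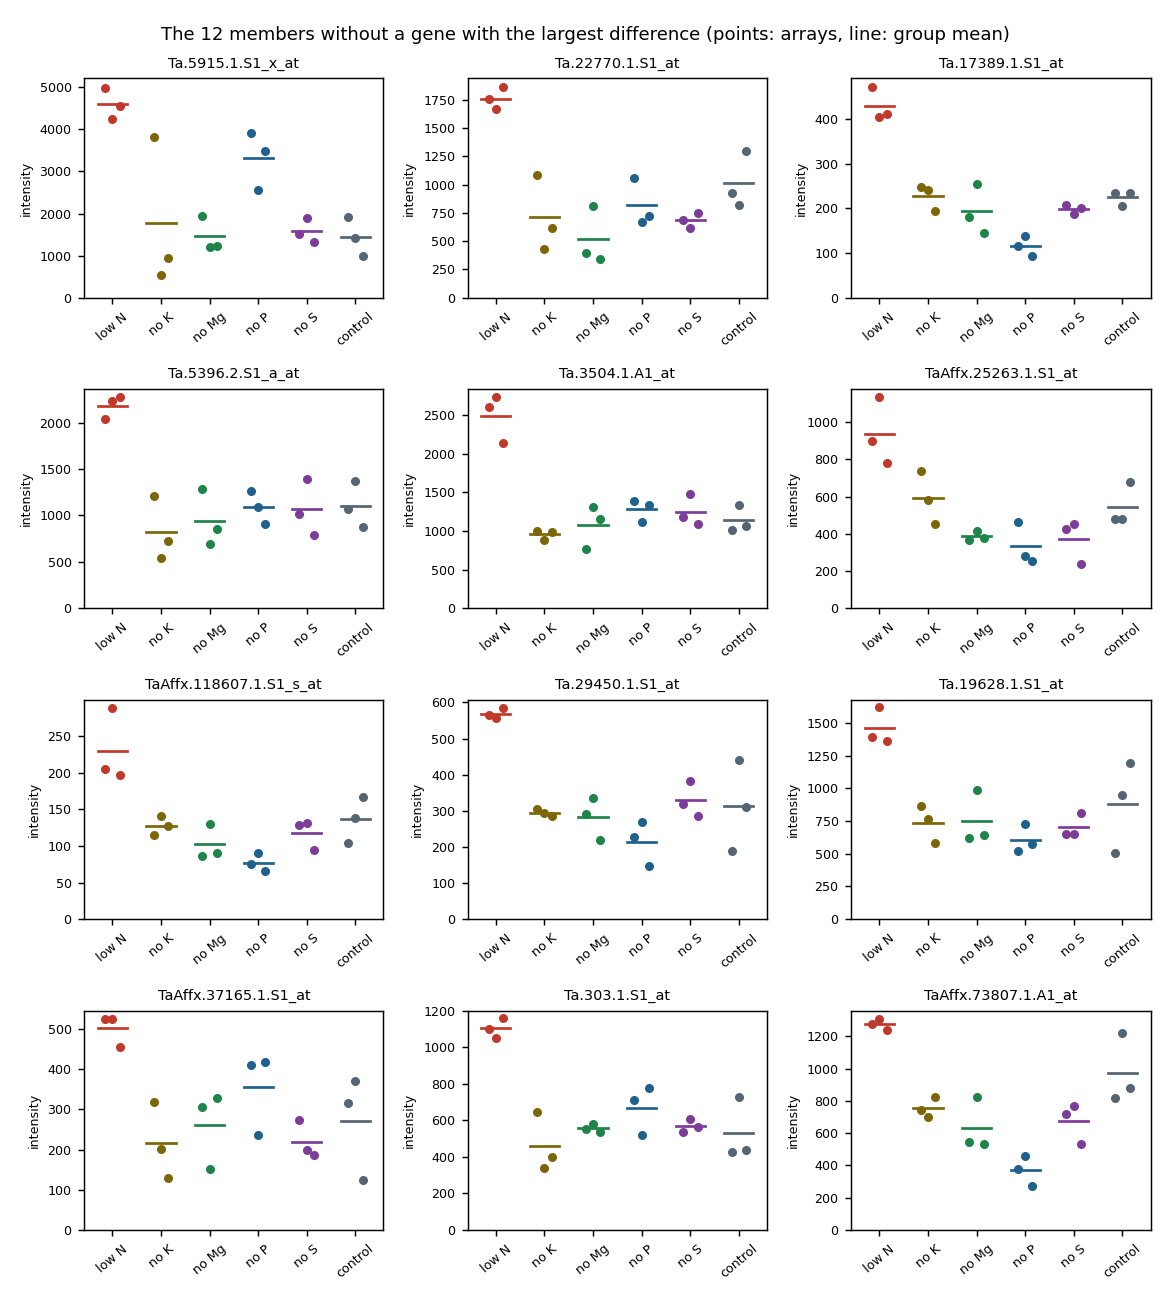
Intensity (linear, from 0) by group of the 12 members without an annotated gene that had the largest low nitrogen difference. Points are arrays and lines are group means, and the second-highest group differs between panels, with no phosphate second for Ta.5915.1.S1_x_at, Ta.3504.1.A1_at, TaAffx.37165.1.S1_at and Ta.303.1.S1_at.

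The intensities of different probe sets depend on their probes and are not compared with each other. Among the members of high intensity, Ta.13256.1.A1_x_at read 4851, 5909 and 6641 in low nitrogen, with control array 2 at 4784. Ta.7378.20.S1_x_at read 5716, 5455 and 5882 in low nitrogen, was lowest in no phosphate at 2460.3, 3006 and 2663, and read 4533, 3479 and 4782 in the control. The annotation gives this member no gene. However, 7 non-member probe sets with names that begin Ta.7378 are annotated to the histone H2B gene wcH2B-8 (LOC543184), and their low nitrogen differences, 0.17 to 0.32 on the log2 scale, did not pass the test. Ta.10065.1.S1_at and Ta.11152.2.A1_a_at had low nitrogen means of 3196 and 4071, and control arrays 3 (2619) and 1 (3733) were the highest of their other arrays.

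Probe sets with the same number at the start of their names come from related sequence clusters of the array design, and their readings may not be independent. The 127 members fell on 115 such numbers, of which 105 held 1 member, 8 held 2 and 2 held 3. The number Ta.21115 held 3 members. Ta.21115.1.A1_at read 4654, 3741 and 3633 in low nitrogen and 1481 to 2615 on the other arrays. Ta.21115.2.S1_x_at read 1823, 1639.6 and 1704 in low nitrogen and 701 to 1163 on the other arrays, and Ta.21115.1.A1_x_at read 4635, 4077 and 3889 against 1801 to 3187. One more probe set, Ta.21115.3.A1_s_at, also had its 3 low nitrogen arrays on top (12921, 10945 and 11255, with control array 3 at 10735), but its difference of 0.44 was under the limit.

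The number Ta.11623 held the other set of 3, with differences of 0.65, 0.64 and 0.62, while one more probe set, Ta.11623.2.A1_at, read 2970.2, 3492 and 2595 in low nitrogen and overlapped the other groups. Across members' numbers there were 91 further non-member probe sets with a low nitrogen mean of at least 200, leaving out the number TaAffx.143995, under which the array has 52 probe sets. Their low nitrogen differences were positive in 80 of the 91 (87.9%), with a median of 0.33, and in 14 (15.4%) all 3 low nitrogen arrays were above the other 15. Among all 20883 probe sets at that level, 58% had a positive difference, the median was 0.04 and all 3 low nitrogen arrays were on top in 3.62%. Of the 91, 37 came from the number Ta.7378 alone, with 34 positive, a median of 0.24 and 0 with all 3 low nitrogen arrays on top. The other 54 had 46 positive (85.2%), a median of 0.43 and 14 (25.9%) with all 3 on top. Over the 91 the differences ran from -1.14 to 1.12. With the number TaAffx.143995 kept in, 86 of 100 were positive (86%), with a median of 0.29 and a range of -1.63 to 1.12. These probe sets share clusters with members chosen for a high low nitrogen level and were read on the same arrays. Their excess over all probe sets is therefore not free of the rule. By type, 61.4% of the members had names ending in _at and 17.3% in _x_at, a type that can hybridise with several related transcripts, and among all probe sets at that level the shares were 63.3% and 17.1%.

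The limits of the rule cut through a continuum. All 3 low nitrogen arrays were above the other 15 in 852 wheat probe sets (1.39%). At the limit on the difference, Ta.1365.1.S1_at stood just inside (0.6011) and Ta.7202.1.S1_x_at just outside (0.5997). Next inside were Ta.13256.2.S1_x_at (0.6017) and TaAffx.31545.1.S1_at (0.6033), and next outside Ta.29111.1.A1_s_at (0.5979) and TaAffx.128812.1.S1_at (0.5967). At the limit on the gap, the nearest inside were Ta.4357.1.S1_at (0.0020), TaAffx.36983.1.S1_at (0.0021) and Ta.21178.1.S1_at (0.0036), and the nearest outside Ta.4311.1.S1_at (-0.0066), Ta.26183.1.A1_at (-0.0095) and Ta.22063.1.S1_s_at (-0.010). At the limit on the level, TaAffx.105864.1.S1_at averaged 203.0 in low nitrogen, with Ta.1365.1.S1_at at 206.2 and TaAffx.36983.1.S1_at at 207.2, and just under it lay TaAffx.119353.1.A1_at at 194.8, Ta.1639.1.S1_at at 193.5 and Ta.25229.1.S1_at at 192.2. Another 629 probe sets had separated arrays and enough intensity but too small a difference, and 289 had the difference and intensity but overlapping arrays.

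The same rule turned to each other group gave 80 probe sets for no potassium, 9 for no magnesium, 230 for no phosphate, 19 for no sulfate and 5 for the control. Low nitrogen thus ranked second of the 6 groups by the number of probe sets it held on top. When the rule was applied with 1 low nitrogen array left out, that array could be read without having been used. Chosen without array 1, 192 probe sets met the rule, and array 1 was above all 15 others in 127 of them (66.1%), against 14.8% of all probe sets with a low nitrogen mean of at least 200. Without array 2 it was 128 of 182 (70.3%, against 11.6%), and without array 3 it was 143 of 213 (67.1%, against 11.3%). The left-out array was thus on top in 66.1% to 70.3% of the sets chosen without it. The 15 other arrays took part in that choice and in the comparison, and the shares over all probe sets carry no such condition, so the excess is not evidence that is free of the rule.

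Among the 5 other groups the control was the one nearest to low nitrogen and no phosphate the farthest. The median low nitrogen difference was 0.52 on the log2 scale from the control (range 0.21 to 1.71), 0.65 from no magnesium, 0.73 from no sulfate, 0.75 from no potassium and 0.95 from no phosphate (range 0.23 to 2.16). The control had the highest mean of the 5 in 66 members (52%), against 21.1% of all probe sets with a low nitrogen mean of at least 200. No phosphate had the lowest mean in 73 (57.5%, against 31%), and no potassium in 33 (26%, against 26.4%). The rule had used the same 15 arrays, through their highest value and their mean. These shares were thus in part set by the choice of members, and nothing is read from their excess. The distance between the highest and the lowest of the 5 group means had a median of 0.60 on the log2 scale and a range of 0.09 to 1.97. On single arrays, the members' median distance from the mean of the 15 was 0.72, 0.74 and 0.68 in low nitrogen. It was 0.19, -0.04 and -0.09 in no potassium, 0.02, 0.17 and -0.0023 in no magnesium, -0.19, -0.10 and -0.41 in no phosphate, 0.02, 0.09 and -0.11 in no sulfate and 0.17, 0.26 and 0.23 in the control. All 3 control arrays were thus above that mean and all 3 no phosphate arrays below it.

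**Figure D4:**
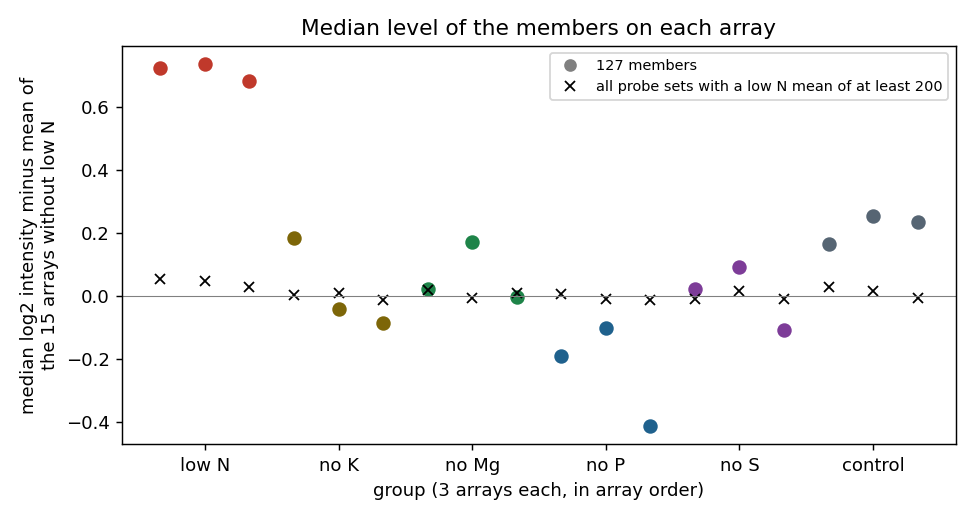
Median over the 127 members (circles) of log2 intensity minus the mean of the 15 arrays without low nitrogen, for each array by group. Crosses show the same median over all 20883 probe sets with a low nitrogen mean of at least 200, which stay near 0 on every array, while the members are at 0.68 to 0.74 in low nitrogen and at -0.41 to -0.10 in no phosphate. The rule used all of these arrays, so the members' values were in part set by the choice of members, and nothing is read from their distance to the crosses.

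Differences among the 5 other groups were taken from a limma fit of those 15 arrays alone, with p-values adjusted over all 33781 probe sets tested. All 127 members passed its filter on low values. The rule had used the same 15 arrays, through their highest value and their mean, so the counts of members are printed beside those of all probe sets and nothing is read from the excess. A moderated F-test called 19 of the 127 (15%), where it called 4.8% of all probe sets tested. In no phosphate against control, 33 members (26%) were lower and 0 higher, where 7.41% of all probe sets tested were called, 4.21% lower and 3.2% higher. Of the 19 members in the F-test, 18 were also among the 33.

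In no potassium (background 0.0947%), no magnesium (background 0.0148%) and no sulfate (background 0.0207%) against control, limma called 0 members. At an unadjusted p under 0.05 it gave 18 members in no potassium (14.2%, against 8.89% of all probe sets tested), 12 in no magnesium (9.45%, against 8.69%) and 27 in no sulfate (21.3%, against 12.6%), all of them lower. The no magnesium share was thus close to the background. The 4 comparisons share the same 3 control arrays.

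A probe set with any no phosphate array at or above its lowest low nitrogen array could not become a member. The direction of the no phosphate calls was therefore in part set by the rule. When the rule was applied without the no phosphate arrays, which was done after the data had been seen, 155 probe sets met it, 86 of them members. Of the 155, 13 (8.39%) were lower and 17 higher in no phosphate, 46.5% lay below the control, and the median difference was 0.14 on the log2 scale. Among all probe sets tested, 4.21% were called lower and 3.2% higher. For the 127 members 87.4% lay below the control, with a median of -0.42, and for all probe sets tested the figures were 44.5% and 0.05. The general lean of the members below the control in no phosphate was therefore not present in the set chosen without those arrays, which held calls in both directions. The 13 lower ones were all members, and the other 20 of the 33 met the rule only with the help of the no phosphate arrays. The corresponding medians for the members were -0.20 in no potassium, -0.13 in no magnesium and -0.20 in no sulfate, and -0.15, -0.10 and -0.15 in the sets chosen without the arrays of that group. The control arrays took part in every choice.

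**Figure D5:**
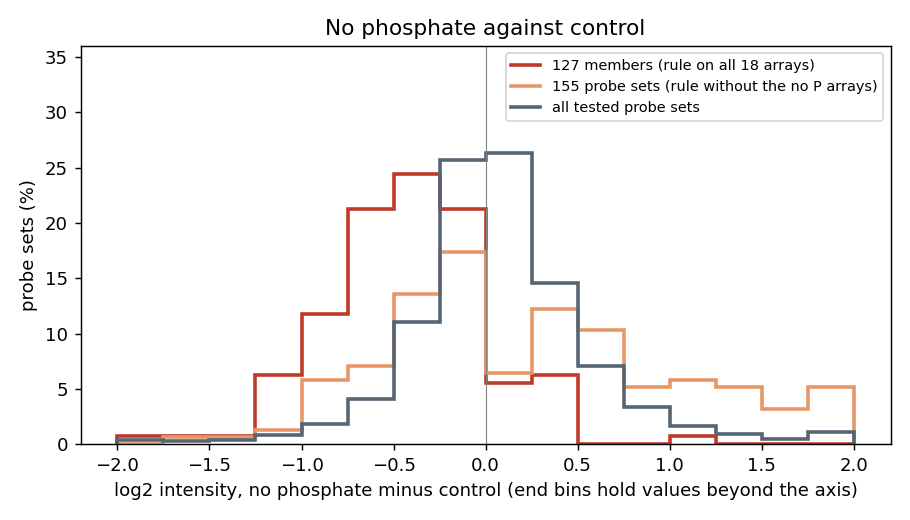
Share of probe sets (%) by log2 intensity in no phosphate minus control, in steps of 0.25, for the 127 members, for the 155 probe sets chosen without the no phosphate arrays, and for all 33781 tested. Of the members 87.4% lie below 0 and the median is -0.42, whereas of the set chosen without those arrays 46.5% lie below 0 and the median is 0.14.

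For the 13 members that met the rule without the no phosphate arrays, the difference from the control ran from -0.48 to -1.57 on the log2 scale. The largest was in Ta.9343.2.S1_a_at, which read 283, 693 and 263 in no phosphate and 1056, 1008 and 1263 in the control, a difference of -1.57 ± 0.27 (SE; limma adjusted p = 0.00615). TaAffx.73807.1.A1_at, described above, differed by -1.40 ± 0.22 (limma adjusted p = 0.00375). In both the no phosphate and control arrays did not overlap. Ta.3093.3.A1_at read 215, 221 and 159 in no phosphate, 417, 432 and 395 in no potassium, 228, 339 and 217 in no magnesium, 263, 291 and 251 in no sulfate, and 389, 387 and 486 in the control. Its no phosphate difference was -1.09 ± 0.18 (limma adjusted p = 0.00443). No magnesium and no sulfate lay under its control arrays too, while no potassium overlapped them. Ta.17389.1.S1_at, the member with the widest gap, differed by -0.98 ± 0.20 (limma adjusted p = 0.0135). This call was kept in 13 of the 15 fits with 1 array left out, and was lost without no phosphate array 3 (limma adjusted p = 0.0624).

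The no phosphate arrays helped to choose the other 20, whose values are given as a description. TaAffx.82031.1.S1_s_at read 129.6, 430.2 and 181 in no phosphate and 724, 829 and 792 in the control, the largest difference of the 33, at -1.85. Low nitrogen read 917, 1021 and 967, just above no magnesium at 758, 905 and 892, so for this member the gap on the low nitrogen side was narrow and the distance to no phosphate wide. Ta.6297.1.S1_a_at, first in the F-test, read 2276, 1709 and 2274 in low nitrogen, 889, 900.0 and 754 in no phosphate, and 1416, 1472 and 1596 in the control, so the 3 groups formed 3 separate levels. Ta.3224.1.A1_at read 335, 341 and 210.4 in no phosphate and 625, 605 and 742 in the control. Of the annotated members LOC543455 was among these 20, with a difference of -0.71. LOC543398 was called in the F-test with none of its 4 comparisons against the control called, and 6-FEH was called in neither.

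The count of 33 rested on single arrays. It was 12 without control array 3, 12 without no phosphate array 3 and 19 without no phosphate array 1, and 11 of the 33 were called whichever of the 15 arrays was left out, 4 of them among the 13. The F-test count was 3 without no phosphate array 3 and 5 without no phosphate array 1. The 5'/3' ratio of ubiquitin was 1.09 to 1.12 in no phosphate and 1.19 to 1.28 in the control, and its part in these differences was not tested.

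In 14 members (11%) no phosphate was the highest of the 5 other groups and came second to low nitrogen rather than last. It was the highest of the 5 in 27.7% of all probe sets with a low nitrogen mean of at least 200. The 14 included Ta.5915.1.S1_x_at, Ta.3504.1.A1_at, TaAffx.37165.1.S1_at, Ta.303.1.S1_at, LOC543419 and Ta.11152.2.A1_a_at, which was at 3389, 2785 and 3618 in no phosphate against 3733, 2381 and 2194 in the control. No member was called higher in no phosphate than in the control by limma, with 1 at an unadjusted p under 0.05, although 2 were without no potassium array 1 and 1 was without control array 2. Of the 127, 2 had all 3 no phosphate arrays above all 3 control arrays, against 60 with all 3 below. Among all probe sets tested, 11.6% had the 3 no phosphate arrays below, and the share with the 3 above was not counted. The no phosphate arrays took part in the choice of members, so nothing is read from these shares.

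The members were set beside genes of 25 lists for nitrogen uptake and assimilation, carbon reserves, transport, stress, cytoskeleton and chromatin. The lists were matched by gene symbol and synonym, and 14 of them found a gene, 34 genes with 68 probe sets in all, of which 54 were tested. The lists for nitrate transport, ammonium transport, nitrate and nitrite reduction, glutamine and glutamate, asparagine, and amino acid transport found 0 genes, so none of the steps of nitrogen uptake could be followed by name. In the fit of all 18 arrays, 6 non-member probe sets of the lists were higher in low nitrogen than the mean of the other 5 groups and 6 were lower. Of all 34255 probe sets in that fit 8.59% were called, 4.41% higher and 4.19% lower.

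The 6 higher probe sets belonged to 3 genes: the 6-FEH probe set given above, whose test is not free of the rule, the beta-tubulin gene Tubb5 and FKBP70. Tubb5 (LOC543261), which encodes a building block of microtubules, was higher on all 4 of its probe sets, by 0.49 to 0.75 on the log2 scale. On Ta.214.1.S1_at it read 3405, 3284 and 3660.2 in low nitrogen, 2725, 2479 and 2341 in no potassium, 2005, 2158 and 1792 in no magnesium, 1462, 1822 and 1359 in no phosphate, 1843, 1816 and 1531 in no sulfate, and 2738, 2243 and 3407 in the control, and control array 3 kept it from having its low nitrogen arrays on top. The difference was 0.75 ± 0.11 (limma adjusted p = 0.000844). The other 5 genes of the tubulin and actin list did not pass the test. FKBP70 (LOC543314), a peptidyl-prolyl isomerase of the FK506-binding family, which assists protein folding, averaged 9188 ± 865 in low nitrogen (SD, n = 3) and 7342 ± 1143 on the other arrays (SD, n = 15), a difference of 0.34 ± 0.05 (limma adjusted p = 0.00162). It read 8220, 9460 and 9885 in low nitrogen, 9020, 8854 and 8880 in no potassium, and 8489, 7961 and 8477 in the control. Low nitrogen array 1 thus lay below every no potassium array and below control arrays 1 and 3. No magnesium, no phosphate and no sulfate read 6006 to 7062, below all of these arrays.

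The 6 lower probe sets also belonged to 3 genes. The cystatin-type protease inhibitor cys1 (LOC543181) was lower on both its probe sets, by -0.30 ± 0.07 (limma adjusted p = 0.0213) and -0.39 ± 0.07 (limma adjusted p = 0.00448). On Ta.99.1.S1_x_at it read 8025, 7191 and 8068 in low nitrogen and 8498 to 12196 on the other arrays, with no overlap. PCS1 (LOC542834), which makes phytochelatins, metal-binding peptides built from glutathione, differed by -0.39 ± 0.10 (limma adjusted p = 0.0291). It read 665, 738 and 515 in low nitrogen, 809, 754 and 704 in no potassium, and 763, 704 and 647 in the control. Low nitrogen thus overlapped both of these groups. No magnesium and no sulfate read 789 to 981, and no phosphate was the highest group at 905, 923 and 1126. GSTZ1 (LOC543412), a zeta-class glutathione transferase, was lower on all 3 of its probe sets, by -0.23 to -0.39. On each of them the low nitrogen arrays overlapped other arrays. On Ta.237.1.S1_at low nitrogen read 1244, 1248 and 844, and control array 2 read 1132. Without low nitrogen array 1 the lists gave 7 calls and without low nitrogen array 3 they gave 6, in place of 12.

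All 17 probe sets of the 4 histone genes had positive differences, from 0.09 to 0.39, and 0 of the 17 passed the test with limma, with 6 at an unadjusted p under 0.05. Among all probe sets with a low nitrogen mean of at least 200, 58% had a positive difference. Several of the 17 read the same gene, so they are not 17 separate results. The 6 tested probe sets of late embryogenesis abundant proteins and dehydrins, which accumulate in drying tissue, and the 3 of the plasma membrane proton pump ha1, which energises nutrient uptake, gave 0 calls with limma, with 2 and 0 at an unadjusted p under 0.05. Since 118 members have no gene name, these counts describe the named genes of the array and not those members.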

How the data were processed

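Root RNA of 18 samples was put on 18 Affymetrix wheat arrays after biotin labelling of cRNA made from 500 ng of total RNA, per the labels' protocols. The authors deposited 1 linear intensity per probe set and array, made with Affymetrix Expression Console and MAS5 per the submitters' processing notes; the sources used here give no versions and no scaling target. Control probe sets (111) were dropped and intensities were turned to log2 with no constant added.

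Tests used limma 3.58.1 in R 4.3.3 (lmFit, eBayes with an intensity trend) on probe sets that reached the median of the array on 3 or more arrays, with Benjamini-Hochberg adjustment over all of them, two-sided, and calls at an adjusted p under 0.05. The fit of 15 arrays had 10 residual and 4.29 prior degrees of freedom. Tables were made with pandas 2.3.3 and figures with matplotlib 3.10.9 in Python 3.11.15.

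Genes came from the platform's annotation, which gave 1 gene for 1273 wheat probe sets and several for 0; of 771 genes, 770 matched the RefSeq table of IWGSC CS RefSeq v2.1, used for names only. Named were all annotated members, the 12 unnamed members with the largest difference, the 8 of highest intensity, the 3 on either side of each limit, the 3 largest called falls and rises, the 5 smallest F-test p-values and called list genes. Other members named were chosen after their values were seen. Alternatives were other scalings, filters, limits of the rule, a replicate block and leaving out each array. The members and lists were chosen with earlier results of these data known.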

Additional observations from a re-analysis of the deposited data

How the results depend on the processing

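The number of probe sets that met the rule was 127, against 12 with a difference of at least 1 and 82 with a mean of at least 500. It was 101 after quantile normalization (99 shared with the members) and 102 after centring on the 75th percentile (100 shared). Leaving out 1 array at a time gave 113 to 213, with 192 without low nitrogen array 1 and 213 without array 3. After either scaling the members' median low nitrogen difference was 0.70 and the lowest 0.58, so no member reversed.

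The F-test called 19 members, against 29 with all 18 arrays, 10 without the filter on low values and 4 without the intensity trend. Leaving out 1 array gave 3 to 25. It fell to 12 when control array 1 was dropped, and was 9 without control array 3, no potassium array 2 or 3, or no sulfate array 1, 11 without no magnesium array 3 or no sulfate array 2, 10 without no sulfate array 3, 5 without no phosphate array 1 and 3 without no phosphate array 3. No phosphate against control called 33 members, and 12 to 43 when 1 array was left out, all lower but 2 without no potassium array 1 and 1 without control array 2; the 155 probe sets chosen without the no phosphate arrays gave 30. No potassium called 0 members, and 0 to 2 when 1 array was left out, the 2 arising without no potassium array 1. No magnesium and no sulfate called 0 under all alternatives run. The lists gave 12 calls, and 6 to 10 when 1 low nitrogen array was left out. The causes were not tested. For the 33 members in no phosphate, alternatives kept the call in 598 cases, lost it in 95 with the same direction, and reversed it in 0.

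The replicate numbers did not pair the samples: deviations of same-numbered arrays correlated at -0.107 to 0.167 over 45 pairs (median -0.00574), and those of other numbers at -0.145 to 0.144 over 90. With the replicate number as a block, the F-test called 17 members, no phosphate 35, the other 3 deficiencies 0 and the lists 12. Low signal limits dim probe sets, since no detection call was used, and groups of 3 arrays limit all single calls.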
